A study of Homo sapiens with 56 samples.

Results

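Transcripts of the bone morphogenetic protein (BMP) ligands BMP2, BMP4 and BMP7, of the pathway inhibitors SMAD6, SMAD7 and BAMBI, and of the target genes ID1, ID2, ID3 and ID4 were followed in the ovarian carcinoma lines PEO1 and PEO4. Every probe set to which the array's annotation gave a single symbol from these 10 genes was taken, which gave 20 of the 22215 probe sets on the array other than its controls. The genes had 2 probe sets for BMP2, 1 for BMP4, 4 for BMP7, 4 for SMAD6, 1 for SMAD7, 1 for BAMBI, 1 for ID1, 2 for ID2, 1 for ID3 and 3 for ID4. Probe sets of a gene read the same transcripts and are not replicates of each other. The genes were selected on how they moved with estradiol (E2) against vehicle, so those values are given as a description with no test, and nothing is supported with them.

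BMPs are secreted ligands of the transforming growth factor beta family. They bind pairs of serine/threonine kinase receptors, which phosphorylate the signal SMADs, and these enter the nucleus with SMAD4 and act on target genes. The ID genes are rapid targets of this route and encode helix-loop-helix proteins without a DNA-binding region, which bind E proteins and keep them from DNA. SMAD6 and SMAD7, the inhibitory SMADs, and BAMBI, a pseudoreceptor without a kinase domain, are induced by the same signals and dampen them. In the ovary, BMPs act on the surface epithelium and the follicle, and BMP signalling and ID proteins have been studied in ovarian carcinoma for their part in growth and differentiation.

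PEO1 and PEO4 are established high-grade serous lines derived from the same patient, and both express estrogen receptor alpha. In each line, cells were held for 3 days in phenol red-free IMEM with charcoal-stripped serum, which removes steroids, and were then given for 3 h the ethanol vehicle, 1 nM E2, 1 µM ICI (fulvestrant), 1 µM 4OHT (4-hydroxytamoxifen), ICI with E2 (ICI+E2) or 4OHT with E2 (4OHT+E2). A further group was taken untreated at 0 h (0h), after the same deprivation as far as the labels say. Fulvestrant is an antagonist of the estrogen receptor that also lowers its amount, and 4-hydroxytamoxifen, the active form of tamoxifen, is an antagonist in some tissues and a partial agonist in others. Each of the 14 groups had 4 arrays, named A to D in PEO1 and 1 to 4 in PEO4, and no label says that these were separate cultures, so p-values measure the spread between these arrays. Each line is 1 cell line, and a difference between PEO1 and PEO4 is between these lines.

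All values are log2 expression values, so a difference of 1 is a doubling of signal. The median of an array was 7.40 to 7.48 for PEO1 against 7.84 to 7.91 for PEO4, so that the lines appear to have been normalized apart, and levels are set side by side between lines with no test. GREB1, a target of the estrogen receptor, was higher with E2 than with vehicle by 1.97 ± 0.09 (SE) in PEO1 and 1.69 ± 0.13 in PEO4. The epithelial markers EPCAM, KRT7, KRT8, KRT18, KRT19 and CDH1 lay at or above the 92.5th percentile of all probe sets in both lines, while the endothelial and immune markers lay at or below the 37.5th. Of the 6 stromal markers, COL1A1 lay at percentile 62.1 in PEO1 and 58.2 in PEO4, ACTA2 at 40.3 and 54.6, and the others at or below 36.2. The mean of the 6 ranged over the 7 groups from 5.85 to 5.93 in PEO1 and from 6.98 to 7.09 in PEO4. The array's ACTB control, the 3' minus the 5' probe set, which rises as RNA is shortened, ran from -0.25 to 0.14 in PEO1 and from 0.24 to 3.41 in PEO4, with 0h replicate 4 at 2.28, ICI replicate 1 at 3.41 and, next highest, 4OHT+E2 replicates 4 and 3 at 1.74 and 1.07. In PEO4 it lay between 0.24 and 0.57 with vehicle and between 0.68 and 1.02 with E2. Calls of the selected genes that use the PEO4 0h or ICI group are therefore described with and without 0h replicate 4 and ICI replicate 1. Calls that appear only in counts, and those of other pathway genes, are given with all arrays. The part of RNA quality in the other PEO4 results was not tested, beyond leaving out arrays and a fit with the control as a covariate.

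Promoters of 8 of the 10 genes were in the RefSeq table used (GRCh38.p14), with 12 starts among them, and BMP2 and BMP7 were not matched. The 250 bases before each start were searched on both strands for GGCGCC, a GC-rich element bound by the SMADs of the BMP route, for CAGAC, the core of the SMAD binding element, for the full estrogen response element GGTCANNNTGACC and for the AP-1 site TGANTCA. No match overlapped another. GGCGCC was in the promoters of BMP4 and BAMBI, 2 of the 8 genes, and in 16.4% of 35116 promoters of that length. CAGAC was in promoters of 5 genes (BMP4, SMAD7, BAMBI, ID3 and ID4) and in 38% of all. A gene was counted if any of its windows held the match, while the shares are of single promoters. The counts and shares are therefore in unlike units and are not set against each other. Of the 3 BMP4 windows, only the most upstream held GGCGCC. The full estrogen response element and the AP-1 site were in none of these windows, against 0.0399% and 6.57% of all promoters. A match describes letters and is not a site, and the absence of one says only that these letters are not in the window. The promoters of BMP4 and SMAD6 are shown because their transcripts had the most similar profiles among these genes, that of BAMBI because it had the largest change, and that of ID4 because the lines differed in it. GGCGCC and CAGAC, or CAGAC read on the other strand as GTCTG, are in capitals. The BMP4 window is the most upstream of 3 and lies at chr14:53955051-53955300 on the minus strand, the SMAD6 window at chr15:66701986-66702235 on the plus strand, the BAMBI window at chr10:28677271-28677520 on the plus strand and the ID4 window at chr6:19837120-19837369 on the plus strand.
BMP4: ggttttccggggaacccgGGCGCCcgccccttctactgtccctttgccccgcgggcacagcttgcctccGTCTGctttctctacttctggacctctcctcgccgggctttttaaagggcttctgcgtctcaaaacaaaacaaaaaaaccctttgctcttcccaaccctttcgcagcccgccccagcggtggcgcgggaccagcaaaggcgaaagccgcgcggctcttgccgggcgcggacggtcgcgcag
SMAD6: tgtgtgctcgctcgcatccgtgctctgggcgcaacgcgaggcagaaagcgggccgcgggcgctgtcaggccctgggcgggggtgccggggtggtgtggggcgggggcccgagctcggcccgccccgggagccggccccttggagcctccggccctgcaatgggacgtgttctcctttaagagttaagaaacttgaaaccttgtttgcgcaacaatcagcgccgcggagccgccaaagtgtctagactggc
BAMBI: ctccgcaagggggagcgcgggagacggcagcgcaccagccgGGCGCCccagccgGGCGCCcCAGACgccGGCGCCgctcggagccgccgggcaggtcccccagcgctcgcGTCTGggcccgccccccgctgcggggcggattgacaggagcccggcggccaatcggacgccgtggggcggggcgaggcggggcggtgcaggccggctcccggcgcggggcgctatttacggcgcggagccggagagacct
ID4: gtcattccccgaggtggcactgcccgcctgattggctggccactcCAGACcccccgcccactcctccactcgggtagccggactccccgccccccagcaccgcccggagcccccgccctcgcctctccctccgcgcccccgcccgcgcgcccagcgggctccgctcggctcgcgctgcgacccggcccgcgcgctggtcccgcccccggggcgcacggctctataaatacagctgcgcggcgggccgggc
BAMBI's window held 3 matches to GGCGCC and 2 to CAGAC, that of BMP4 held 1 of each, that of ID4 held 1 CAGAC, and that of SMAD6 held neither.

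The ligands BMP2 and BMP4 lay on opposite sides of vehicle after E2 in both lines. For BMP2 (probe set 205290_s_at) the PEO1 vehicle arrays read 8.77, 8.69, 8.78 and 8.51 and the E2 arrays 9.19, 9.18, 9.31 and 9.26. In PEO4 the vehicle arrays read 6.60, 6.63, 6.57 and 6.47 and the E2 arrays 6.87, 7.30, 6.91 and 6.88. All E2 arrays were above all vehicle arrays in each line, and the difference was 0.55 ± 0.07 (SE, 4 arrays a group) in PEO1, a fold of 1.46, and 0.42 ± 0.11 in PEO4, a fold of 1.34. The other BMP2 probe set, 205289_at, gave 0.46 ± 0.08 and 0.51 ± 0.12. For BMP4 (211518_s_at) the PEO1 vehicle arrays read 7.35, 7.29, 7.38 and 7.25 and the E2 arrays 7.07, 6.98, 6.96 and 7.14. In PEO4 they read 10.61, 10.61, 10.63 and 10.63 with vehicle and 10.37, 10.41, 10.26 and 10.34 with E2. Here all E2 arrays were below all vehicle arrays in each line, and the difference was -0.28 ± 0.07 in PEO1 and -0.28 ± 0.06 in PEO4, a fold of 1.21 in each. These E2 and vehicle values chose the genes and carry no test.

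BMP2 also moved between groups outside the E2 and vehicle contrast. Genes and tests were chosen with earlier results of these data known, so these comparisons are not independent of the choice. In PEO1, 205290_s_at read 8.43, 8.36, 8.41 and 8.12 with ICI, 8.73, 9.00, 8.69 and 8.57 with 4OHT, 8.52, 8.45, 8.55 and 8.49 with ICI+E2, and 9.06, 9.08, 8.95 and 8.93 with 4OHT+E2. Both groups with 4OHT lay wholly above their counterparts with ICI. BMP2 was higher with 4OHT than with ICI by 0.42 ± 0.07 (adjusted p = 0.00156, limma) and higher with 4OHT+E2 than with ICI+E2 by 0.50 ± 0.07 (adjusted p = 0.000214), comparisons that share no array with E2 or vehicle. The other probe set rose with it, by 0.34 ± 0.08 (adjusted p = 0.0251) and 0.36 ± 0.08 (adjusted p = 0.0163). In PEO4, 205290_s_at read 6.61, 6.52, 6.41 and 6.76 with ICI+E2 and 7.03, 7.25, 7.65 and 7.46 with 4OHT+E2, again with no overlap. The difference was 0.77 ± 0.11 (adjusted p = 2.7e-05), a fold of 1.71, and 205289_at gave 0.43 ± 0.12 (adjusted p = 0.0372). BMP2 lay rather low on the PEO4 arrays. Both probe sets were at percentile 30.6 with ICI+E2, and at 42.3 (205290_s_at) and 37.3 (205289_at) with 4OHT+E2. PECAM1, the highest of the endothelial and immune markers in PEO4, was at 35.2 with vehicle. The 4OHT+E2 arrays with the highest BMP2 values, replicates 3 and 4, also had the highest ACTB control values of these 8 arrays, 1.07 and 1.74. The difference in 205290_s_at was 0.67 without replicate 3 (adjusted p = 0.000239), 0.73 without replicate 4 (adjusted p = 0.000238) and 0.73 with the control as a covariate (adjusted p = 1.39e-05). Without E2 in PEO4 the values were 6.96, 6.67, 6.75 and 6.56 with ICI and 7.11, 6.97, 6.91 and 6.96 with 4OHT, which overlap, and the difference of 0.25 (95% interval 0.03 to 0.47) did not pass (adjusted p = 0.257). The PEO4 minus PEO1 difference of this response was -0.16 (-0.43 to 0.10), also not past the threshold (adjusted p = 0.619).

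Set on top of E2, the antagonists acted on BMP2 unequally. ICI+E2 was below E2 by 0.74 ± 0.07 in PEO1 (adjusted p = 1.58e-07), with all arrays apart, and the other probe set fell by 0.63 ± 0.08 (adjusted p = 1.78e-05). In PEO4 the fall was 0.41 ± 0.11 in 205290_s_at, at the threshold (adjusted p = 0.0499). There 205289_at did not pass, with means of 6.58 with ICI+E2 and 6.92 with E2. 4OHT+E2 was below E2 in PEO1 by only 0.23 ± 0.07 (adjusted p = 0.0447) and 0.27 ± 0.08 (adjusted p = 0.0401). In PEO4, 205289_at had means of 7.01 with 4OHT+E2 and 6.92 with E2 and did not pass. In 205290_s_at, 4OHT+E2 was above E2 there by 0.36 ± 0.11, which did not pass with all arrays (adjusted p = 0.0516). It passed when PEO4 0h replicate 4 and ICI replicate 1 were left out of the fit (adjusted p = 0.032). 4OHT alone was above vehicle in PEO4 by 0.42 ± 0.11 in 205290_s_at (adjusted p = 0.0226), and by 0.38 in 205289_at, which passed only without those arrays (adjusted p = 0.0659 with and 0.0444 without them), while in PEO1 the vehicle and 4OHT means were 8.69 and 8.75. ICI alone in PEO1 lay wholly below vehicle in both probe sets, by 0.36 ± 0.07 and 0.34 ± 0.08, but neither passed over all probe sets (adjusted p = 0.0631 and 0.252). BMP2 was also higher with vehicle than at 0h in PEO1, by 0.50 ± 0.08 in 205289_at (adjusted p = 0.000458) and 0.30 ± 0.07 in 205290_s_at (adjusted p = 0.0136). ICI+E2 minus E2, 4OHT+E2 minus E2 and the comparisons with vehicle share arrays with the E2 contrast that chose the genes.

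Ordered by mean of 205290_s_at, PEO1 ran from ICI through 0h, ICI+E2, vehicle, 4OHT and 4OHT+E2 to E2, at 8.33, 8.39, 8.50, 8.69, 8.75, 9.01 and 9.24. Of these neighbours, 0h and ICI+E2, and 4OHT+E2 and E2, did not overlap, and the others did. PEO4 ran from 0h through vehicle, ICI+E2, ICI, 4OHT and E2 to 4OHT+E2, at 6.22, 6.57, 6.58, 6.73, 6.99, 6.99 and 7.35, and neighbours other than 0h and vehicle overlapped. The levels are a description, since the gene was chosen for its pattern. Some BMP2 calls rest on single arrays. The 4OHT+E2 and E2 differences in PEO1 no longer passed when any of the 8 arrays was left out of the fit for 205290_s_at (values between -0.26 and -0.18 over all alternatives) or when E2 replicate B or C or 4OHT+E2 replicate B, C or D was left out for 205289_at (-0.37 to -0.20), and both were lost with quantile normalization, with array weights and in a fit to the compared groups alone. The PEO4 ICI+E2 and E2 difference was lost without any of the E2 arrays or without ICI+E2 replicate 1, 2 or 3 (-0.47 to -0.31), and also with a replicate block (adjusted p = 0.0789), with quantile normalization (adjusted p = 0.0561) and in a fit to the compared groups alone (adjusted p = 0.0725). The PEO4 4OHT difference from vehicle was lost without vehicle replicate 3 or 4 or 4OHT replicate 1 or 2 (0.38 to 0.44). For 205289_at, the PEO1 4OHT and ICI difference was lost without ICI replicate B or C or 4OHT replicate B or C (0.30 to 0.38), the PEO1 4OHT+E2 and ICI+E2 difference without ICI+E2 replicate A or B or 4OHT+E2 replicate A (0.26 to 0.42), and the same difference in PEO4 without any ICI+E2 array or without 4OHT+E2 replicate 1 or 3 (0.33 to 0.49). The PEO1 vehicle and 0h difference in 205290_s_at was lost without vehicle replicate A or C (0.27 to 0.36).

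**Figure D1:**
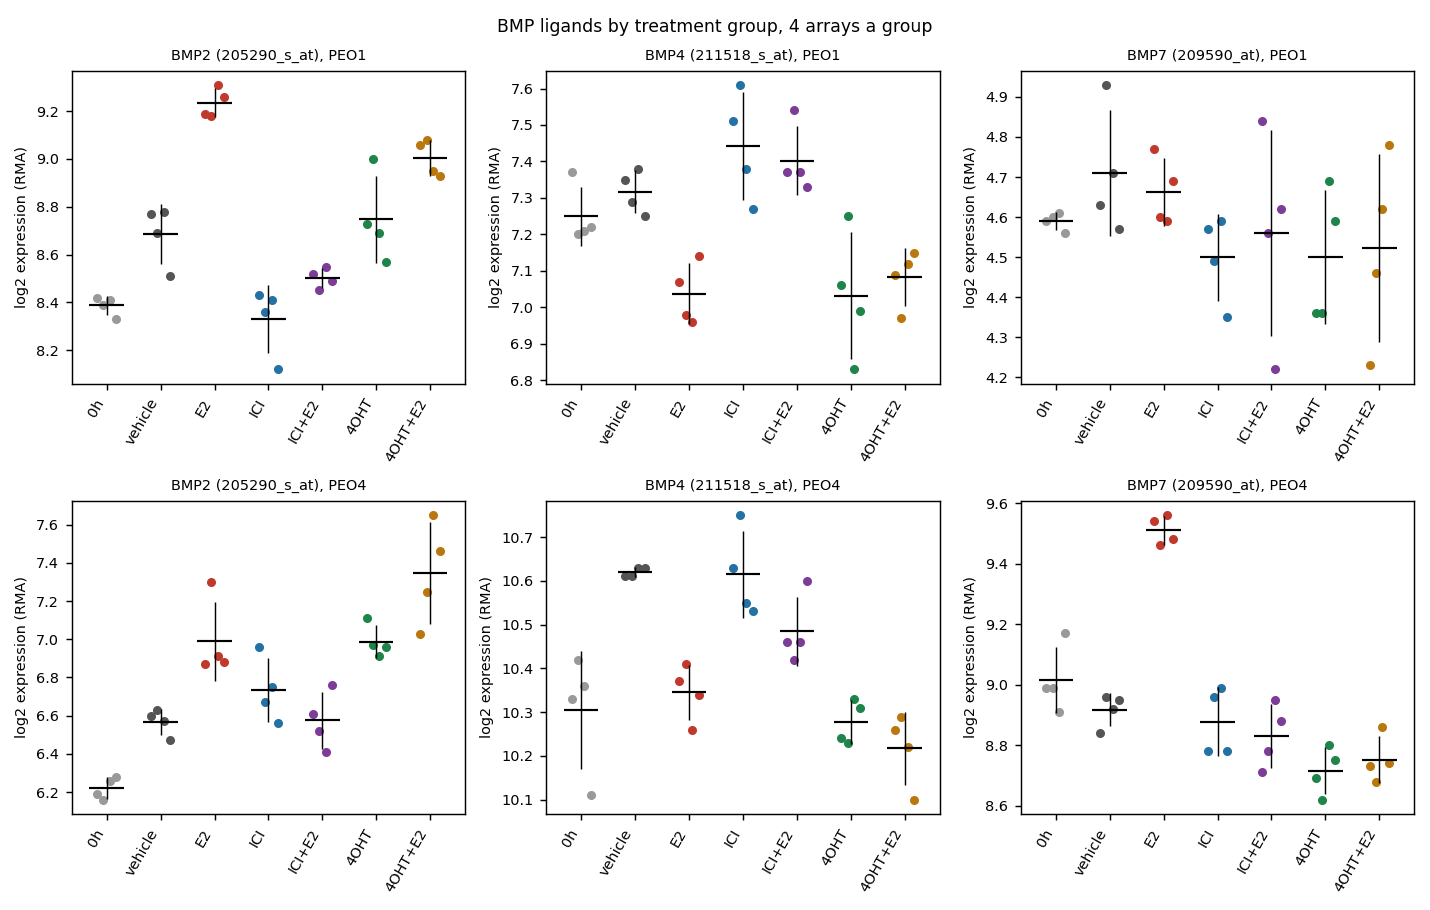
Log2 expression of BMP2, BMP4 and BMP7 (1 probe set each) on each array by treatment group, PEO1 above and PEO4 below, with the group mean (bar) and SD (line); vertical scales differ between panels. BMP2 is highest with E2 in PEO1 (mean 9.24) and with 4OHT+E2 in PEO4 (7.35). BMP4 is low with E2, 4OHT and 4OHT+E2 in both lines and, in PEO4, also at 0h (10.3). BMP7 stands apart with E2 in PEO4 (9.51).

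BMP4 moved the other way from BMP2 between the antagonists. In PEO1 it read 7.51, 7.61, 7.38 and 7.27 with ICI and 7.06, 7.25, 6.83 and 6.99 with 4OHT, with no overlap. The difference was -0.41 ± 0.07 (adjusted p = 0.00215). With E2 present, the arrays read 7.37, 7.54, 7.37 and 7.33 with ICI and 7.09, 6.97, 7.12 and 7.15 with 4OHT, and the difference was -0.32 ± 0.07 (adjusted p = 0.0171). In PEO4 the ICI arrays read 10.63, 10.75, 10.55 and 10.53 and the 4OHT arrays 10.24, 10.23, 10.33 and 10.31. All 4OHT arrays were below all ICI arrays, by 0.34 ± 0.06 (adjusted p = 0.0018), and without PEO4 ICI replicate 1 and 0h replicate 4 the difference was -0.33 ± 0.06 (adjusted p = 0.000949). With E2 present it was -0.27 ± 0.06 in PEO4 (adjusted p = 0.0101). BMP4 was thus lower with 4OHT than with ICI in both lines, with and without E2. In a fit to the compared groups alone, only the PEO4 difference with E2 present still passed. The PEO1 differences did not (adjusted p = 0.104 without E2 and 0.0712 with it), nor did that in PEO4 without E2 (adjusted p = 0.0804). These comparisons share no array with the E2 and vehicle contrast, but they are not independent of the choice of genes. The PEO4 minus PEO1 difference of the response without E2 was 0.07 (-0.12 to 0.27, adjusted p = 0.784).

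4OHT alone was also below vehicle for BMP4, by 0.29 ± 0.07 in PEO1 (adjusted p = 0.0277), where 4OHT replicate B and vehicle replicate D both read 7.25, and by 0.34 ± 0.06 in PEO4 (adjusted p = 0.001), where the groups were apart. ICI+E2 was above E2 by 0.37 ± 0.07 in PEO1 (adjusted p = 0.00458). The BMP4 means with 4OHT+E2 and E2 were 7.08 and 7.04 in PEO1 and 10.22 and 10.34 in PEO4. In PEO4 vehicle was above 0h by 0.32 ± 0.06 (adjusted p = 0.00127), and by 0.25 ± 0.06 without the arrays of outlying quality (adjusted p = 0.00502). By mean, PEO1 ran from 4OHT through E2, 4OHT+E2, 0h, vehicle and ICI+E2 to ICI, and of these neighbours only 4OHT+E2 and 0h did not overlap. PEO4 ran from 4OHT+E2 through 4OHT, 0h, E2, ICI+E2 and ICI to vehicle, and only E2 and ICI+E2 did not overlap. The PEO1 4OHT difference from vehicle was lost without vehicle replicate A or C or 4OHT replicate C or D (-0.36 to -0.22). The 4OHT+E2 and ICI+E2 difference was lost without ICI+E2 replicate B or 4OHT+E2 replicate B in PEO1 (-0.35 to -0.26) and without ICI+E2 replicate 4 or 4OHT+E2 replicate 4 in PEO4 (-0.29 to -0.23).

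BMP7, a ligand of the same family, was higher with E2 than with vehicle in PEO4, in the contrast that chose the genes. Its probe set 209590_at read 8.84, 8.96, 8.92 and 8.95 with vehicle and 9.54, 9.46, 9.56 and 9.48 with E2, and the difference was 0.59 ± 0.06. In PEO1 the same probe set read 4.63, 4.93, 4.71 and 4.57 with vehicle and 4.77, 4.60, 4.59 and 4.69 with E2, which overlap. Both antagonists were below E2 in PEO4 when given with it: ICI+E2 arrays read 8.71, 8.78, 8.95 and 8.88 and 4OHT+E2 arrays 8.73, 8.68, 8.86 and 8.74, all below the E2 arrays. The falls were 0.68 ± 0.06 (adjusted p = 9.68e-08) and 0.76 ± 0.06 (adjusted p = 4.83e-09), and 4OHT+E2 differed from ICI+E2 by -0.08 (-0.21 to 0.05), which did not pass (adjusted p = 0.607). 4OHT alone was below vehicle by 0.20 ± 0.06 with no overlap, which passed only without PEO4 0h replicate 4 and ICI replicate 1 (adjusted p = 0.0678 with and 0.0285 without them). The comparisons with E2 or with vehicle share arrays with the contrast that chose the gene. The other probe sets moved less: 209591_s_at was 0.17 ± 0.05 higher with E2 than with vehicle and fell by 0.23 ± 0.05 with 4OHT+E2 (adjusted p = 0.0106), while 211259_s_at and 211260_at passed in no comparison. In the vehicle groups 209590_at and 209591_s_at had means of 4.71 and 5.01 in PEO1 and of 8.92 and 10.21 in PEO4. The PEO1 means lay low on the array, at percentiles 12.6 and 15.5 of all probe sets, where a lack of difference says little about BMP7.

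SMAD6, which competes for the signal SMADs, followed BMP4. Over the 14 group means, each taken from its line's mean, the Pearson correlation of SMAD6 (207069_s_at) with BMP4 was 0.90, and that of BMP2 with BMP4 was -0.62. These are descriptions over group means that share arrays and include the E2 and vehicle groups. In PEO1, SMAD6 read 8.53, 8.46, 8.48 and 8.47 with ICI and 8.21, 8.11, 8.30 and 8.29 with 4OHT, with no overlap, and fell by 0.26 ± 0.05 (adjusted p = 0.0054). Against vehicle, at 8.37, 8.44, 8.48 and 8.61, 4OHT was lower by 0.25 ± 0.05 (adjusted p = 0.00478). In PEO4 SMAD6 read 9.46, 9.32, 9.32 and 9.34 with ICI+E2 and 9.16, 8.97, 8.98 and 9.12 with 4OHT+E2, and the difference was -0.30 ± 0.07 (adjusted p = 0.0153). That call was lost without ICI+E2 replicate 1 or 4OHT+E2 replicate 2 or 3 (-0.34 to -0.27). The matching PEO1 difference, -0.15 (-0.26 to -0.04), and the PEO4 difference without E2, -0.18 (-0.33 to -0.03), did not pass (adjusted p = 0.115 and 0.231). With E2 the mean was lower than with vehicle by 0.28 ± 0.05 in PEO1 and 0.19 ± 0.07 in PEO4, as a description, and ICI+E2 was above E2 in PEO1 by 0.20 ± 0.05 (adjusted p = 0.0365), a call lost without any of the E2 arrays or without ICI+E2 replicate A, B or C (0.19 to 0.23), with a replicate block (adjusted p = 0.0601) and in a fit to the compared groups alone (adjusted p = 0.0568). Without PEO4 0h replicate 4 and ICI replicate 1, SMAD6 in PEO4 was also higher with ICI+E2 than with E2, by 0.24 ± 0.06 (adjusted p = 0.0371), and with vehicle than at 0h, by 0.23 ± 0.07 (adjusted p = 0.0466). The other 3 SMAD6 probe sets passed in no comparison.

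SMAD7, which blocks the receptors and recruits ubiquitin ligases to them, passed in 1 comparison. In PEO1 it read 9.55, 9.42, 9.52 and 9.50 with ICI and 9.21, 9.08, 9.15 and 9.22 with 4OHT, and the difference was -0.34 ± 0.06 (adjusted p = 0.00344). ICI was also above vehicle there by 0.25 (0.12 to 0.39), with no overlap, which did not pass (adjusted p = 0.313). In PEO4 the 7 group means lay within 0.23 of each other. All 4OHT+E2 arrays were below all ICI+E2 arrays there, by 0.17 ± 0.05, which passed only without PEO4 0h replicate 4 and ICI replicate 1 (adjusted p = 0.0728 with and 0.0323 without them).

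BAMBI had the largest change of these genes in the tested comparisons, between 0h and vehicle, where the 3 h and the vehicle cannot be told apart. In PEO4 it read 9.59, 9.54, 9.47 and 9.23 at 0h and 10.61, 10.28, 10.58 and 10.55 after 3 h of vehicle. All vehicle arrays were above all 0h arrays, by 1.05 ± 0.09 (adjusted p = 9.21e-09), a fold of 2.06. Without 0h replicate 4 and ICI replicate 1, the difference was 0.97 ± 0.08 (adjusted p = 2.03e-08). In PEO1 it read 9.67, 9.71, 9.71 and 9.78 at 0h and 10.10, 10.20, 10.13 and 10.11 with vehicle, and rose by 0.42 ± 0.05 (adjusted p = 4.79e-06). The rise was greater in PEO4 by 0.62 ± 0.10 (adjusted p = 7.17e-05), and by 0.55 ± 0.09 without these arrays (adjusted p = 0.000136). Between treatments BAMBI differed little: it was higher with ICI+E2 than with E2 in PEO1 by 0.20 ± 0.05 (adjusted p = 0.0215), a call lost without E2 replicate A or D or ICI+E2 replicate B or C (0.17 to 0.23) and in a fit to the compared groups alone (adjusted p = 0.114), and it passed in no other comparison of treatments.

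ID4, an ID gene known to be overexpressed in many ovarian carcinomas, was lower with each antagonist than with vehicle in PEO1, and no such difference passed in PEO4. Its probe set 209291_at read 10.20, 10.21, 10.34 and 10.41 with vehicle and 9.87, 9.82, 9.86 and 9.82 with ICI in PEO1, with no overlap. The fall was 0.45 ± 0.06 (adjusted p = 0.000901), a fold of 1.36, and 209293_x_at fell by 0.37 ± 0.06 (adjusted p = 0.00809). In PEO4 it read 13.20, 13.09, 13.11 and 13.21 with vehicle and 13.23, 13.08, 13.15 and 13.36 with ICI, a difference of 0.05 (-0.06 to 0.17; adjusted p = 0.632). In this probe set the responses differed between lines by 0.50 ± 0.09 (adjusted p = 0.00115), and by 0.49 ± 0.09 without the PEO4 arrays of outlying quality (adjusted p = 0.00404). The other probe sets did not pass for this line difference. In 209292_at it was 0.51 ± 0.17 (adjusted p = 0.331), and in 209293_x_at, which differed by -0.30 in PEO4, it was 0.07 ± 0.16 (adjusted p = 0.896), or 0.26 ± 0.11 without the arrays of outlying quality (adjusted p = 0.688). With 4OHT, 209291_at read 9.93, 9.87, 10.11 and 10.12 in PEO1, below vehicle by 0.28 ± 0.06 (adjusted p = 0.0121), the PEO4 arrays with 4OHT read 13.37, 13.24, 13.29 and 13.13, and the responses differed between lines by 0.39 ± 0.09 (adjusted p = 0.0155). In 209293_x_at a line difference of 0.47 passed only without PEO4 0h replicate 4 and ICI replicate 1 (adjusted p = 0.165 with and 0.0173 without them). The line difference in 209292_at, whose vehicle means were 5.99 in PEO1 and 10.66 in PEO4, was 0.66 ± 0.17 (adjusted p = 0.0393). It no longer passed without vehicle replicate C or D or 4OHT replicate A, B or D of PEO1, or without vehicle replicate 2, 3 or 4 or 4OHT replicate 1, 2 or 3 of PEO4 (0.59 to 0.79), nor with quantile normalization (adjusted p = 0.0625). In 209291_at the vehicle means were 10.29 in PEO1 and 13.15 in PEO4. Whether such unlike levels limit the size of a response in either line was not tested.

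With E2 present, ID4 in PEO1 was lower than with E2 alone under ICI, by 0.43 ± 0.06 in 209291_at (adjusted p = 8.89e-05) and 0.32 ± 0.06 in 209293_x_at (adjusted p = 0.00316). Under 4OHT it was lower by 0.60 ± 0.06 in 209291_at (adjusted p = 3.29e-07), 0.75 ± 0.12 in 209292_at (adjusted p = 0.00018) and 0.44 ± 0.06 in 209293_x_at (adjusted p = 2.83e-05). In PEO4 only 209292_at passed, falling by 0.43 ± 0.10 with 4OHT+E2 against E2 (adjusted p = 0.0106), a call lost without E2 replicate 1 or 4OHT+E2 replicate 3 (-0.51 to -0.38). Without PEO4 0h replicate 4 and ICI replicate 1, 209293_x_at also fell against E2, by 0.34 ± 0.09 with ICI+E2 (adjusted p = 0.0351) and 0.40 ± 0.09 with 4OHT+E2 (adjusted p = 0.00464). As a description, E2 arrays were all above vehicle arrays in PEO4 in each of the 3 probe sets, by 0.23 ± 0.06, 0.54 ± 0.10 and 0.39 ± 0.14, while in PEO1 they overlapped vehicle, with differences of 0.12, 0.11 and 0.05. ID4 was higher with vehicle than at 0h in PEO1 by 0.41 ± 0.06 in 209291_at (adjusted p = 0.000201), and this rise was smaller in PEO4 by 0.36 ± 0.09 (adjusted p = 0.0136), a line difference lost without PEO1 vehicle replicate D (-0.39 to -0.32) and equal to -0.35 ± 0.09 without the PEO4 arrays of outlying quality (adjusted p = 0.0285). The other probe sets did not pass for it, at -0.29 ± 0.17 in 209292_at (adjusted p = 0.577) and 0.03 ± 0.16 in 209293_x_at (adjusted p = 0.973), which was 0.28 higher with vehicle in PEO1 and 0.31 higher in PEO4. The calls in 209293_x_at for ICI in PEO1 were lost without vehicle replicate D or ICI replicate A or D (-0.41 to -0.34), and those in 209291_at for 4OHT in PEO1 without vehicle replicate C or 4OHT replicate B (-0.32 to -0.23). The line difference for 4OHT in 209291_at was lost without PEO1 4OHT replicate B (0.34 to 0.43).

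ID2 and ID3, which bind E proteins, were lower with 4OHT in PEO1. ID2 (201565_s_at) read 11.98, 11.96, 12.12 and 12.07 with ICI, 11.73, 11.70, 11.76 and 11.82 with 4OHT, 11.97, 11.92, 12.03 and 11.89 with ICI+E2, and 11.53, 11.57, 11.56 and 11.74 with 4OHT+E2. Each 4OHT group was wholly below its ICI counterpart, by 0.28 ± 0.06 without E2 (adjusted p = 0.00848) and 0.36 ± 0.06 with it (adjusted p = 0.00089). The second probe set, 201566_x_at, fell by 0.31 ± 0.08 (adjusted p = 0.0311) and 0.37 ± 0.08 (adjusted p = 0.00799), the former lost without ICI replicate A, C or D or 4OHT replicate A or B (-0.35 to -0.26). In PEO4 the ID2 difference between 4OHT and ICI was 0.11 (-0.04 to 0.26), and the lines differed by 0.39 ± 0.09 (adjusted p = 0.0429). That line difference was lost under 17 of 25 alternatives, among them the fit without the PEO4 arrays of outlying quality, the replicate block (adjusted p = 0.0554), quantile normalization, the ACTB covariate, the fit to the compared groups alone and each fit without 1 of PEO1 ICI replicates A to D, PEO1 4OHT replicates A to C, PEO4 ICI replicates 1 and 2 or PEO4 4OHT replicates 1 to 3 (0.31 to 0.46). Against vehicle, 4OHT lowered ID2 in PEO1 by 0.24 ± 0.06 (adjusted p = 0.0225), a call lost without vehicle replicate C or D or 4OHT replicate B (-0.29 to -0.18) and with quantile normalization (adjusted p = 0.0725), and against E2, 4OHT+E2 was lower by 0.29 ± 0.06 (adjusted p = 0.00217).

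ID3 in PEO1 read 9.56, 9.60, 9.69 and 9.63 with vehicle and 9.34, 9.29, 9.27 and 9.33 with 4OHT, and fell by 0.32 ± 0.05 (adjusted p = 0.00064). In PEO4 it read 9.49, 9.27, 9.50 and 9.54 with vehicle and 9.54, 9.50, 9.62 and 9.51 with 4OHT, which overlap. The responses differed between lines by 0.41 ± 0.10 (adjusted p = 0.0347), a call lost without vehicle replicate B, C or D or 4OHT replicate B or C of PEO1 or without vehicle replicate 2 or 4OHT replicate 1 or 3 of PEO4 (0.35 to 0.44), and with quantile normalization (adjusted p = 0.0656). 4OHT+E2 was below E2 by 0.26 ± 0.05 (adjusted p = 0.00192) and below ICI+E2 by 0.20 ± 0.05 (adjusted p = 0.0441) in PEO1, the latter lost without ICI+E2 replicate A, B or C or 4OHT+E2 replicate A, B or D (-0.24 to -0.15), with quantile normalization (adjusted p = 0.11), with the ACTB control as a covariate (adjusted p = 0.0657) and in a fit to the compared groups alone (adjusted p = 0.206). ID2 and ID3 were higher with vehicle than at 0h in both lines. In PEO1 ID2 rose by 0.45 ± 0.06 (adjusted p = 2.96e-05), and in PEO4 by 0.26 ± 0.07 (adjusted p = 0.0309), and ID3 rose by 0.35 ± 0.05 (adjusted p = 0.00016) and 0.40 ± 0.08 (adjusted p = 0.00403). Without PEO4 0h replicate 4 and ICI replicate 1, the PEO4 rises were 0.28 ± 0.07 for ID2 (adjusted p = 0.0202) and 0.30 ± 0.08 for ID3 (adjusted p = 0.0158). The PEO4 ID2 rise was lost without 0h replicate 1, 2 or 3 or vehicle replicate 1, 3 or 4 (0.23 to 0.31).

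**Figure D2:**
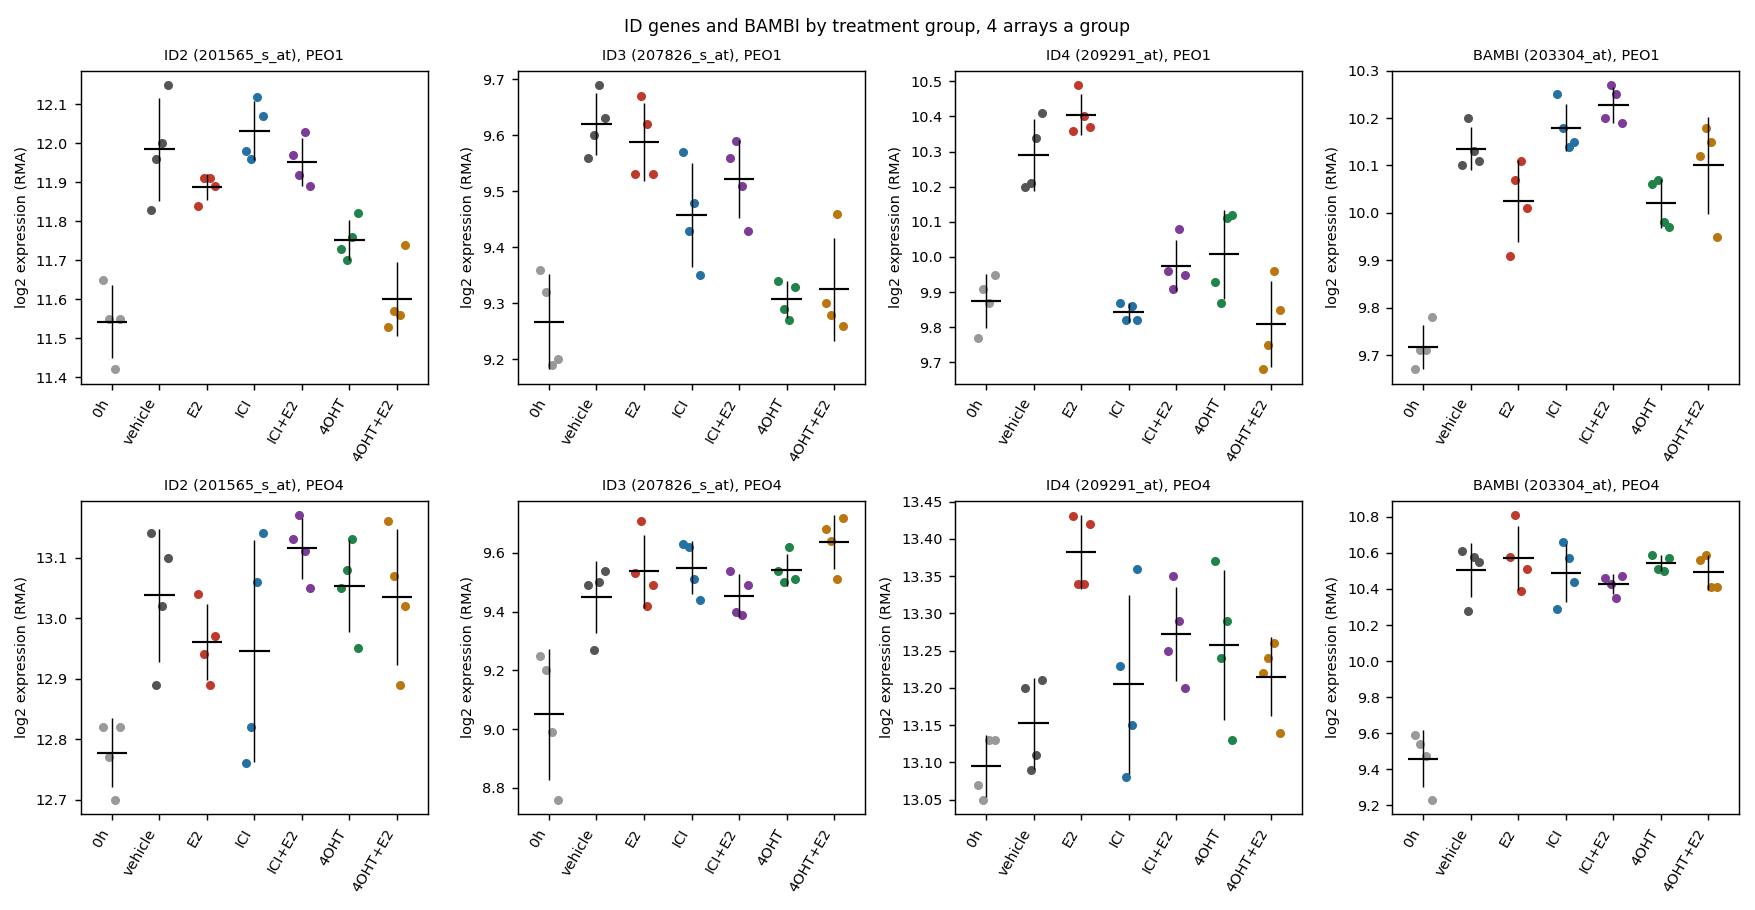
Log2 expression of ID2, ID3, ID4 and BAMBI (1 probe set each) on each array by treatment group, PEO1 above and PEO4 below, with the group mean (bar) and SD (line); vertical scales differ between panels. The 0h arrays of BAMBI lie below all treated arrays in both lines, and ID4 in PEO1 is highest with vehicle and E2 (means 10.29 and 10.41).

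ID1, often used as a readout of BMP signalling, passed in none of the 23 comparisons. In PEO1 its 7 group means lay within 0.19, and the interval of the 4OHT and vehicle difference was -0.31 to -0.04 (adjusted p = 0.138). In PEO4 the ICI arrays read 10.37, 11.76, 11.84 and 11.65 and the 0h arrays 12.00, 11.99, 11.75 and 10.94, so that ICI replicate 1 and 0h replicate 4, the arrays with the highest ACTB control, were also the lowest for ID1. ICI minus vehicle was -0.29 (-0.74 to 0.16) with all arrays and 0.05 ± 0.09 without these 2 arrays, and the intervals in PEO4 were wide enough that a change of the size seen for ID4 in PEO1 was not excluded there with all arrays. The same 2 arrays read 10.80 and 10.90 for ID4 probe set 209293_x_at, below the other ICI and 0h arrays.

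**Figure D3:**
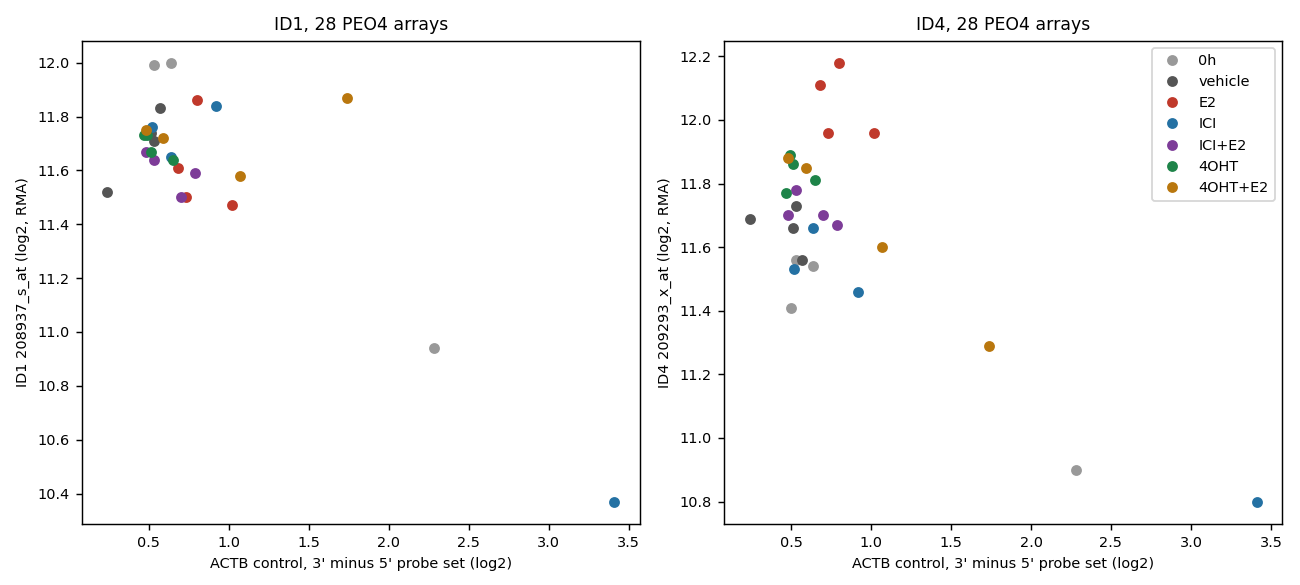
ID1 and 1 ID4 probe set (log2) against the ACTB control value (3' minus 5' probe set, log2) on the 28 PEO4 arrays, coloured by treatment group. ICI replicate 1 (control 3.41) and 0h replicate 4 (2.28) lie lowest on both vertical axes.

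Counted over the members, the antagonist comparisons with vehicle gave few calls with ICI and more with 4OHT. With ICI in PEO1, 2 of the 20 probe sets fell, both of ID4, against 0.0585% of all probe sets called. In a fit to the compared groups alone, which has fewer arrays to estimate the spread, 209293_x_at no longer passed (adjusted p = 0.221). With 4OHT in PEO1, 6 probe sets of 5 genes fell (BMP4, SMAD6, ID2, ID3 and ID4) and 0 rose, against 4.21% called among all, and the median difference was -0.18 over the 20 and -0.03 over all probe sets. In a fit to the compared groups alone, ID3 was the only 1 of these 6 that passed, and BMP4, SMAD6, ID2 (201565_s_at) and ID4 (209291_at and 209293_x_at) did not (adjusted p = 0.124, 0.095, 0.129, 0.107 and 0.0511). With ICI in PEO4, 0 of the 20 passed in limma, against 0.0765% of all probe sets called. There 1 of the 20 had an unadjusted p under 0.05, against 4123 of all 22215 probe sets. With 4OHT in PEO4, BMP2 rose and BMP4 fell (background 3.93%). These comparisons share the vehicle arrays with the contrast that chose the genes, and nothing particular to the list is read from their counts.

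With E2 present, ICI+E2 against E2 gave 3 probe sets higher and 4 lower in PEO1, from BMP2, BMP4, SMAD6, BAMBI and ID4 (background 1.88%), and 2 lower in PEO4, from BMP2 and BMP7 (background 1.44%). 4OHT+E2 against E2 gave 7 lower in PEO1, from BMP2, ID2, ID3 and ID4 (background 9.99%), and 3 lower in PEO4, from BMP7 and ID4 (background 4.25%). A fit to the compared groups alone ended some of these calls. For ICI+E2 against E2 it ended those of SMAD6 and BAMBI in PEO1 (adjusted p = 0.0568 and 0.114) and of BMP2 in PEO4 (adjusted p = 0.0725). For 4OHT+E2 against E2 it ended those of BMP2 in PEO1 in both probe sets (adjusted p = 0.194 in 205289_at and 0.0658 in 205290_s_at), of ID3 in PEO1 (adjusted p = 0.0535) and of BMP7 (209591_s_at) in PEO4 (adjusted p = 0.0946). When E2 was added to an antagonist, 0 members passed in either line. For ICI+E2 against ICI the backgrounds were 0% in PEO1 and 0% in PEO4. There 3 and 5 of the 20 had an unadjusted p under 0.05 in limma, against 722 and 2949 of all 22215 probe sets. For 4OHT+E2 against 4OHT the backgrounds were 0% and 0.0675%. Here 7 and 2 of the 20 had an unadjusted p under 0.05, against 1663 and 1542 of all 22215 probe sets. BMP2 (205290_s_at) was 0.26 (0.11 to 0.41) above 4OHT in PEO1 and 0.36 (0.14 to 0.58) above it in PEO4 when E2 was added (adjusted p = 0.472 and 0.371).

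Between the antagonists, which were given at the same dose and for the same time, 4OHT against ICI gave 2 probe sets higher, both of BMP2, and 5 lower in PEO1, of BMP4, SMAD6, SMAD7 and ID2 (background 2.39%). In PEO4 only BMP4 passed, lower (background 1.56%). In a fit to the compared groups alone, BMP2 (205290_s_at), BMP4, SMAD6 and ID2 (201565_s_at and 201566_x_at) no longer passed in PEO1 (adjusted p = 0.103, 0.104, 0.086, 0.0557 and 0.109), nor did BMP4 in PEO4 (adjusted p = 0.0804). 4OHT+E2 against ICI+E2 gave 2 higher and 4 lower in PEO1, of BMP2, and of BMP4, ID2 and ID3 (background 2.71%), and 2 higher and 2 lower in PEO4, of BMP2, and of BMP4 and SMAD6 (background 3.21%). The fit to the compared groups alone ended the PEO1 calls of BMP2 (205289_at), BMP4, ID2 (201566_x_at) and ID3 (adjusted p = 0.171, 0.0712, 0.0695 and 0.206). BMP7 (209590_at) and ID1 did not pass in any of these 4 comparisons, and their intervals for 4OHT minus ICI were -0.23 to 0.22 and -0.20 to 0.07 in PEO1. The BMP7 probe set was low on the array there, with a mean of 4.5 in both groups. After 3 h of vehicle against 0h, 8 probe sets rose in PEO1, of BMP2, BAMBI, ID2, ID3 and ID4 (background 5.66%), and 5 rose in PEO4, of BMP4, BAMBI, ID2 and ID3 (background 4.89%), and 0 fell in either line. The PEO4 rises of ID2 (201565_s_at) and ID3 did not pass in a fit to the compared groups alone (adjusted p = 0.0564 and 0.0861). The median vehicle minus 0h difference was 0.13 over the 20 probe sets in each line, against 0.02 and -0.02 over all probe sets.

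**Figure D4:**
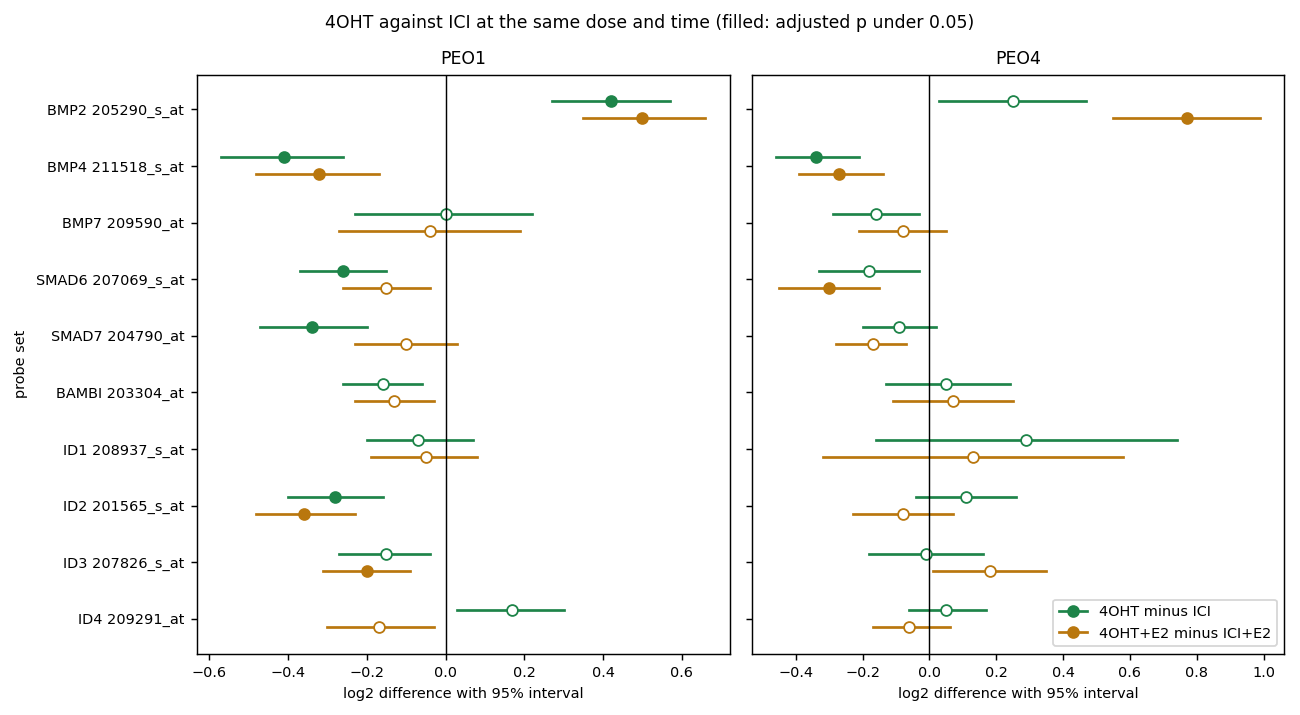
Log2 difference of 4OHT against ICI, without E2 (green) and with E2 (brown), with its 95% interval, for 1 probe set of each gene in PEO1 (left) and PEO4 (right); filled points passed at an adjusted p under 0.05. BMP2 lies above 0 and BMP4 and SMAD6 below it in each of the 4 comparisons, although 3 of these 12 points did not pass for BMP2 or SMAD6.

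The responses differed between lines, PEO4 minus PEO1, for few members. For ICI against vehicle 1 probe set passed, of ID4 (background 0.063%), though not in a fit to the compared groups alone (adjusted p = 0.0924). For 4OHT against vehicle 3 passed, of ID3 and ID4 (background 0.783%), and in a fit to the compared groups alone the 2 of ID4 did not (adjusted p = 0.0747 in 209291_at and 0.0766 in 209292_at). For 4OHT against ICI 1 passed, of ID2 (background 0.329%), and for vehicle against 0h 2 passed, BAMBI higher and ID4 lower (background 1.46%). For 4OHT+E2 against 4OHT 0 passed in limma and 2 had an unadjusted p under 0.05 (background 0%). Among pairs of a called probe set and another probe set of its gene in the same comparison, 78 in all, the other was called the same way in 38 and the opposite way in 0. It had the same sign without passing in 36, and the opposite sign or 0 in 4.

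**Figure D5:**
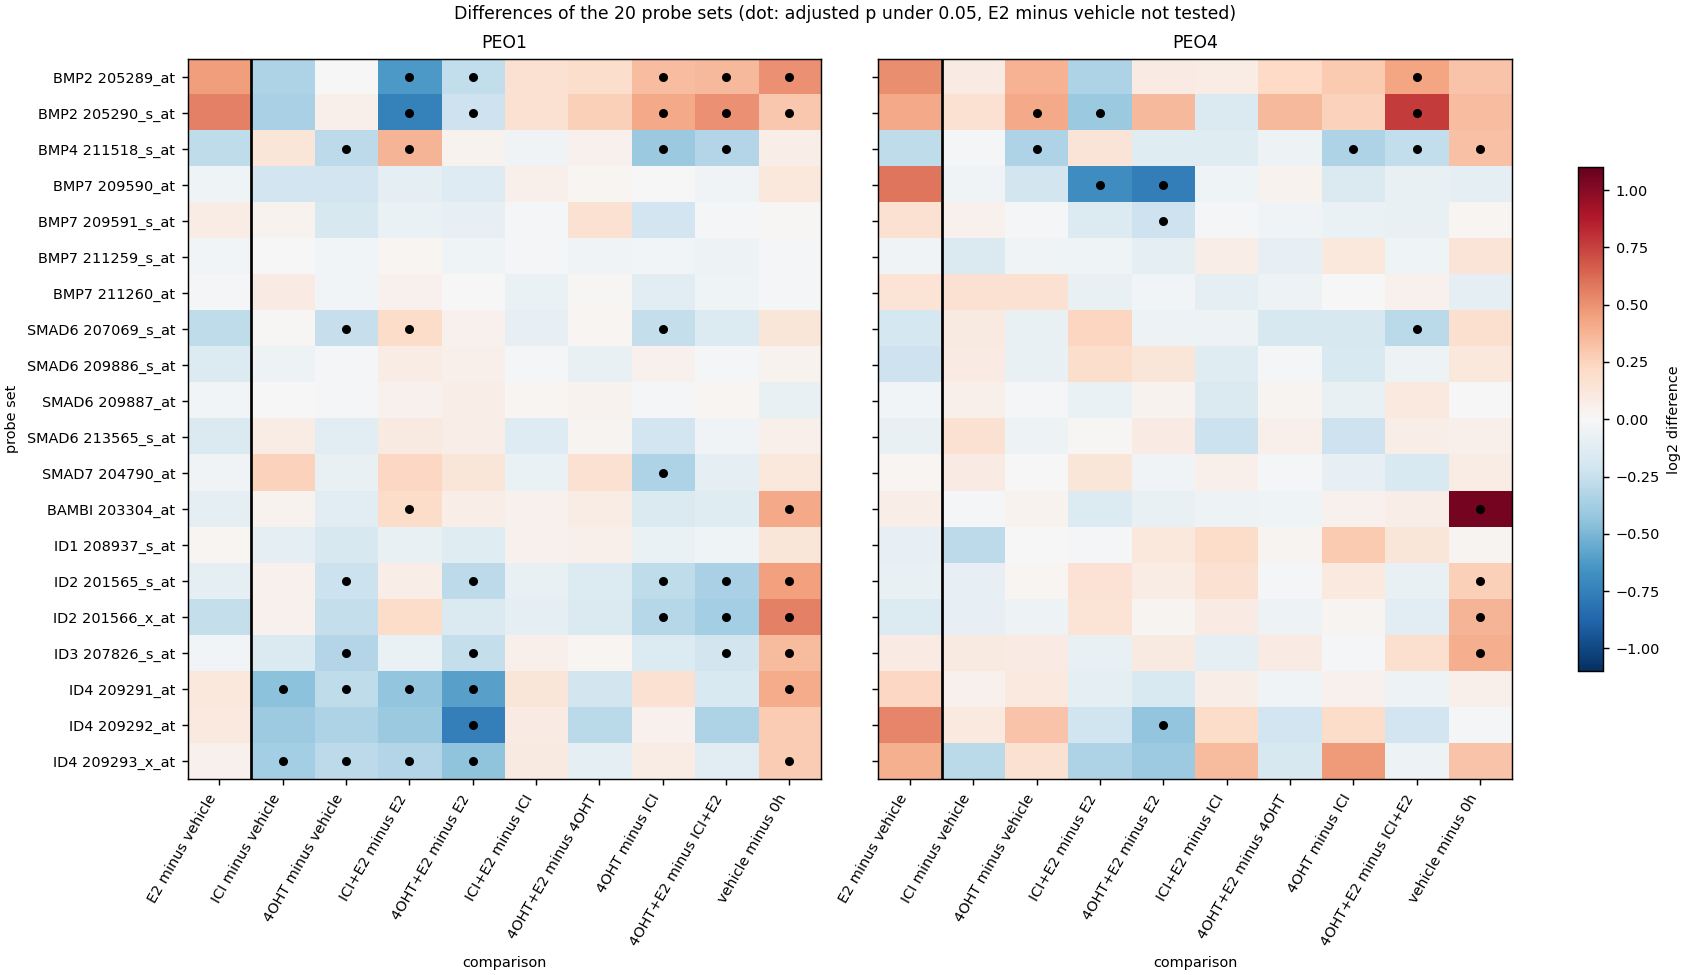
Log2 differences of the 20 probe sets in 10 comparisons in PEO1 (left) and PEO4 (right), red for higher in the first-named group and blue for lower; a dot marks an adjusted p under 0.05. The column left of the line, E2 minus vehicle, chose the genes and was not tested. ID4 is blue in the 4 antagonist columns against vehicle or E2 in PEO1, and BAMBI is darkest in vehicle minus 0h in PEO4 (1.05).

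Other genes of the pathway, in lists of receptors, signal SMADs, ligands, secreted antagonists, intracellular regulators, target genes and ID partners, were measured with 118 probe sets. With 4OHT against vehicle, 2 rose and 8 fell in PEO1, 8.47% against 4.21% of all probe sets, and 8 rose and 6 fell in PEO4, 11.9% against 3.93%. SMAD3, a signal SMAD of the activin and TGF-beta branch, rose in both lines, by 0.31 ± 0.04 (adjusted p = 0.000106) and 0.20 ± 0.06 (adjusted p = 0.0447). INHBB, an activin subunit, fell by 0.35 ± 0.04 in PEO1 (adjusted p = 2.45e-05), and PMEPA1, a membrane regulator of TGF-beta signalling, rose by 0.38 ± 0.06 in PEO4 (adjusted p = 0.000422). TCF4, an E protein bound by IDs, fell in both lines, by 0.32 ± 0.07 in 213891_s_at in PEO1 (adjusted p = 0.00553) and 0.41 ± 0.09 in 212382_at in PEO4 (adjusted p = 0.00781). With ICI against vehicle 0 passed in limma in either line. Of the 118, 8 in PEO1 and 33 in PEO4 had an unadjusted p under 0.05, against 1036 and 4123 of all 22215 probe sets. With 4OHT against ICI, 4 rose and 2 fell in PEO1, 5.08% against 2.39% of all, and 0 passed in PEO4 in limma, against 1.56% of all. In PEO4, 24 of the 118 had an unadjusted p under 0.05 in this comparison, against 3393 of all 22215 probe sets. INHBA, the other activin subunit, was higher with 4OHT than with ICI in PEO1 by 0.32 ± 0.06 (adjusted p = 0.00626). It was higher with 4OHT+E2 than with ICI+E2 both in PEO1, by 0.30 ± 0.06 (adjusted p = 0.00905), and in PEO4, by 0.47 ± 0.08 (adjusted p = 0.000726).

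After 3 h of vehicle, 7 pathway probe sets rose and 3 fell in PEO1, 8.47% against 5.66% of all probe sets, and 8 rose and 1 fell in PEO4, 7.63% against 4.89%. MSX1, a homeobox target of BMP signalling, rose in PEO1 by 0.42 ± 0.05 (adjusted p = 2.2e-05) and in PEO4 by 0.41 ± 0.07 (adjusted p = 0.000197), and SMAD1, a signal SMAD of the BMP branch, by 0.27 ± 0.06 (adjusted p = 0.00461) and 0.36 ± 0.08 (adjusted p = 0.00433). PMEPA1 rose by 0.90 ± 0.06 in PEO4 (adjusted p = 2.28e-10), more than in PEO1 by 0.89 ± 0.09 (adjusted p = 1.35e-09). Among the falls in PEO1 were SMAD3 (218284_at), at -0.28 ± 0.04 (adjusted p = 0.000279), and TGIF1, at -0.29 ± 0.05 (adjusted p = 0.00167). The fall in PEO4 was of TCF12, at -0.21 ± 0.05 (adjusted p = 0.0137). The PEO4 values and the line difference in this paragraph include 0h replicate 4, an array of outlying quality, and are not given without it.

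Similar profiles were sought among 268 probe sets outside the members, those whose group means spanned at least 0.5 in both lines. The genes with the profile most like BMP2 over the 14 group means were INHBA (Pearson r = 0.958), PLPP3 (0.949) and COBL (0.946). For BMP4 they were GAS1 (0.826), CYP1B1 (0.762) and F2R (0.747), and for SMAD6 they were F2R (0.815), CYP1B1 (0.801) and GAS1 (0.68). For ID1 the highest values were lower, with CAVIN2 (0.669), BMAL1 (0.626) and PIP5K1A (0.619), and the ID1 means include the arrays of outlying quality. The means share arrays and lines, and the correlations are a description with no test.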

How the data were processed

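Transcripts of PEO1 and PEO4 cells were measured on 56 Affymetrix arrays, 28 per line, in 7 groups of 4. The authors deposited RMA signals on the log2 scale, as the labels state. The RMA version is not given in the sources used here, and the values carry no detection calls. Groups came from the labels. The PEO4 titles say Tam for 4OHT, as the series description defines it. Symbols came from the array's annotation, and 1 probe set with 2 symbols, 1 of them a member's, was left out. Of 22277 probe sets, 62 controls were set aside.

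Each line was fitted with limma 3.58.1 in R 4.3.3, 1 mean per group over 28 arrays with 21 residual degrees of freedom, and differences between lines in 1 fit over 56 arrays. Adjusted p-values are Benjamini-Hochberg over all 22215 probe sets, with a threshold of 0.05. All differences are log2, with the standard error or 95% interval of the moderated fit. The number of arrays limits the precision. The method was tested on simulated data. Members, lists and tests were chosen with earlier results of these data known. Every member probe set was fitted in every comparison, but not every value is printed, and some calls appear only in the counts. Of each pathway list, up to 3 genes per direction and comparison were taken by adjusted p, and the genes given of these are examples. The pattern search used, for each of BMP2, BMP4, SMAD6 and ID1, the probe set with the highest mean. Arrays were not paired by replicate label in the main fit: in 17 of 18 comparisons at least 1 same-labelled pair correlated at 0.1 or below. Alternatives are given in the closing section. Promoter sequences are from RefSeq (GRCh38.p14).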

Additional observations from a re-analysis of the deposited data

Results flagged for a closer look

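Arrays that stood apart within their group of 4 were sought in each of the 20 probe sets and 14 groups by the gap to the nearest array relative to the range. Of 280 groups tested, 15 had such an array, and chance flags about 1 in 20 groups. BMP2 read 8.7 on PEO1 E2 replicate B in 205289_at, with the others at 8.44 to 8.46, and 7.3 on PEO4 E2 replicate 2 in 205290_s_at, with the others at 6.87 to 6.91. BMP4 read 7.37 on PEO1 0h replicate A, against 7.2 to 7.22 on the others. BMP7 read 10.29 on PEO4 0h replicate 4 in 209591_s_at, against 10.15 to 10.17. For SMAD6, PEO4 ICI+E2 replicate 1 read 9.46 in 207069_s_at and 6.99 in 209886_s_at, PEO1 0h replicate B read 6.29 in 209886_s_at and 6.43 in 213565_s_at, PEO4 vehicle replicate 3 read 6.3 in 209887_at, and PEO1 4OHT+E2 replicate D and PEO4 0h replicate 3 read 6.63 and 7.12 in 213565_s_at. SMAD7 read 9.04 on PEO1 vehicle replicate A, against 9.31 to 9.32. ID1 read 10.37 on PEO4 ICI replicate 1, against 11.65 to 11.84, the widest gap of these, and 10.81 on PEO1 4OHT replicate D, against 10.68 on the others. ID4 read 6.05 on PEO1 4OHT replicate C in 209292_at, against 5.49 to 5.54. PEO4 ICI replicate 1 also had the highest ACTB 3' minus 5' value, 3.41, and its part in the ID1 value was examined only by leaving the array out.

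The responses that differed between the lines, as PEO4 minus PEO1 by limma's test of the difference, were those of ID4 (209291_at) to ICI, 0.5, of ID3 to 4OHT, 0.41, of ID4 to 4OHT, 0.39 in 209291_at and 0.66 in 209292_at, of ID2 (201565_s_at) to 4OHT against ICI, 0.39, of BAMBI to vehicle against 0h, 0.62, and of ID4 (209291_at) to vehicle against 0h, -0.36. Their adjusted p-values ran from 7.17e-05 for BAMBI to 0.0429 for ID2.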

How the results depend on the processing

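No difference of a member changed sign past the threshold under any alternative, and the array number limits which differences could be called. The values here are counts of the 10 genes with a called probe set. For ICI against vehicle in PEO1 the count of 1 became 2 with trend and robust variance, without the 40% of probe sets of lowest mean, with 1 probe set per gene, with the ACTB control as covariate and with a replicate block, and 3 with array weights. In a fit to the compared groups alone, PEO1 counts were 1 for 4OHT against vehicle (5), 3 for ICI+E2 against E2 (5), 2 for 4OHT+E2 against E2 (4), 2 for 4OHT against ICI (5) and 2 for 4OHT+E2 against ICI+E2 (4), with the full fit in parentheses. They were 0 for 4OHT against ICI in PEO4 and 0 for the line differences in ICI against vehicle and in 4OHT against ICI, from 1 each. In PEO4, array weights gave 1 for ICI against vehicle (0), 4 for 4OHT against vehicle (2), 5 for ICI+E2 against E2 (2), 3 for ICI+E2 against ICI (0) and 5 for 4OHT against ICI (1), and 2 for each of the line differences in ICI against vehicle and 4OHT against ICI (1). The ACTB covariate gave 4 for 4OHT against vehicle, 4 for ICI+E2 against E2 and 0 for the 4OHT and ICI line difference. Without PEO4 0h replicate 4 and ICI replicate 1 the counts were 4 for ICI+E2 against E2 and 0 for that line difference. Without low probe sets, 1 gene was called for 4OHT against vehicle and 1 for ICI+E2 against E2. With 1 probe set per gene 1 was called for ICI+E2 against E2 and 1 for 4OHT+E2 against E2. Quantile normalization gave 1 for ICI+E2 against E2, 1 for the 4OHT line difference (2) and 0 for the 4OHT and ICI line difference. Other than where an alternative uses fewer arrays or probe sets, the cause was not tested.

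With a replicate block on the array labels, counts were 2 for ICI against vehicle in PEO1, 1 for ICI+E2 against E2 in PEO4 and 0 for the line difference in 4OHT against ICI, and no other count moved by over 1.5 times. Same-labelled arrays correlated between -0.38 and 0.36, and every pair was over 0.1 in 1 of 18 comparisons, 4OHT+E2 against ICI+E2 in PEO4, where the block changed no call. The arrays were not treated as paired. Arrays with unlike labels were not compared, so these values cannot tell whether same-labelled arrays were handled together.

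Leaving out 1 array at a time gave counts of 1 to 2 for ICI against vehicle in PEO1 (2 without vehicle replicate D), 3 to 5 for 4OHT against vehicle (3 without vehicle replicate C), 3 to 5 for ICI+E2 against E2 (3 without E2 replicate A or D or ICI+E2 replicate B or C) and 2 to 5 for 4OHT+E2 against ICI+E2 (2 without replicate B of either group). In PEO4 the ranges were 0 to 1 for ICI against vehicle and 1 to 2 for 4OHT against ICI (the higher without ICI replicate 4), 1 to 2 for 4OHT against vehicle and for ICI+E2 against E2, and 1 to 3 for 4OHT+E2 against E2 (1 without E2 replicate 1 or 4OHT+E2 replicate 3). For the line differences they were 1 to 2 for ICI against vehicle (2 without PEO4 ICI replicate 4), 0 to 2 for 4OHT against vehicle (0 without PEO1 4OHT replicate B), 0 to 1 for 4OHT against ICI and 1 to 2 for vehicle against 0h (1 without PEO1 vehicle replicate D). E2 minus vehicle, a description, ranged in PEO1 from 0.40 to 0.52 and 0.49 to 0.58 for the BMP2 probe sets and from -0.31 to -0.25 for BMP4, and in PEO4 from 0.45 to 0.57, 0.32 to 0.46 and -0.30 to -0.25. No other leave-one-out count moved by over 1.5 times.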
